A study of Mus musculus with 18 samples.

Results

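The genes described here are 7 genes of the fetal-like state that crypts of the gut enter while they regenerate: *Ly6a*, *Clu*, *Anxa1*, *Msln*, *S100a6*, *Ccn1* and *Ccn2*. They were taken by name from the 47729 genes of a table of RNA-Seq read counts in mouse colon. The list held 9 names, but *Cyr61* and *Ctgf* are the former names of *Ccn1* and *Ccn2*, so it came to 7 rows, 1 per gene. The rule that picks the members uses names and no counts, but the list of names was drawn up with earlier results of these data known. Positions of the genes are those of the count table, on build GRCm38. RNA of colon was sequenced as 9 libraries, each over 2 lanes, whose counts were added up.

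The libraries fell into 3 groups of 3, named here by the library number in the labels. Control WT (R1 to R3) is colon of wild-type mice whose treatment is labelled as control. AOM-DSS WT (R4 to R6) is colon of wild-type mice that received azoxymethane (AOM), a colon carcinogen, as a single dose of 10 mg/kg, and then 3 cycles of 2.5% DSS (dextran sulfate sodium), an agent that injures the colonic epithelium. AOM-DSS Claudin-2TG (R7 to R9) is colon of mice that had the same treatment and carry a transgene for the tight junction protein claudin-2. The study describes this line as Villin-*Cldn2*TG, in which the villin promoter drives the transgene in intestinal epithelium, and all of its mouse lines as C57BL/6. No group of untreated transgenic mice was analysed here, so the transgene was compared only under treatment. Ages are not given in the sources used here.

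When colonic crypts are injured and their homeostatic stem cells are lost, surviving epithelial cells pass for a time through a state that resembles fetal gut epithelium before crypts form again. *Ly6a*, which encodes the surface antigen Sca-1, and *Clu*, which encodes the secreted chaperone clusterin and marks the so-called revival stem cells, are the best known markers of this state, and *Anxa1*, *Msln* and *S100a6* are also counted among its genes. The state is linked to YAP and TAZ, the co-activators that the Hippo kinases hold in check, which act through TEAD transcription factors. *Ccn1* and *Ccn2* encode secreted matricellular proteins and are the textbook YAP target genes.

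The promoters of the members are shown first because TEAD factors bind DNA at a short motif, GGAATG or its reverse complement CATTCC. RefSeq promoter sequence of build GRCm38.p6, the 250 bases before the start site, was at hand for 3 of the 7 members: *Ccn1*, *S100a6* and *Anxa1*. The promoter of *Ccn1* (chr3:145649986-145650235, minus strand) held 1 TEAD motif, set in capitals, at positions -103 to -98 from the start site. That of *S100a6* (chr3:90612644-90612881, plus strand, cut where the gene model of the count table begins) held none. The start of *Anxa1* lies within a longer gene model, so only the 30 bases around its motif, at positions -236 to -231 (chr19:20390890-20390919, minus strand), are shown. Sequences read 5′ to 3′ on the strand of the gene.
Ccn1: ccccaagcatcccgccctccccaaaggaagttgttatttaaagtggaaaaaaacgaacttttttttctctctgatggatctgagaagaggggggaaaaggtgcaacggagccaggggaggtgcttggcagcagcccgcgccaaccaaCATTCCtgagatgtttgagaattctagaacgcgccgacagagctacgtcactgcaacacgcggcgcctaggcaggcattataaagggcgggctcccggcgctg
S100a6: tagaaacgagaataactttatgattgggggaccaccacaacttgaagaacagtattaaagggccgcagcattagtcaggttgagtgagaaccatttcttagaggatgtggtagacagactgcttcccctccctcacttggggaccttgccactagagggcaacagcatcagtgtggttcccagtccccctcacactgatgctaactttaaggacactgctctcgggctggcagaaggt
Anxa1: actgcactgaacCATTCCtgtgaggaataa

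Read on both strands, the TEAD motif was present in 2 of these 3 promoters and in 14.4% of the 27025 genes of the promoter table. AP-1, the dimer of Fos and Jun proteins (motif TGANTCA), the STAT motif (TTCNNNGAA) and the CArG box of serum response factor had no match in the 3 promoters and a match in 7.82%, 8.13% and 1.62% of all genes. A match describes the letters of the sequence and is not evidence of a bound factor.

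The libraries held 14142711 to 22262546 counts on genes. Levels are given as CPM, the counts of a gene relative to the total of its library, scaled with the trimmed mean of M values (TMM) over the 9 libraries. A count of 3 in a library corresponded to 0.129 to 0.219 CPM. On the first principal component of log2 CPM, which held 51.82% of the variance, R5 and R6 lay far from the other libraries (74.89 and 88.04) and R4 lay between them and the rest (27.38, with the other 6 from -43.14 to -24.69). R1 had 214.4 CPM of *Xist*, the RNA of the inactive X chromosome, against at most 0.2038 CPM in the other 8, so 1 Control WT library differed from the rest in sex. What the calls of the members became without R1 and without R4 is given with the results. *Cldn2* itself was at 230.8 ± 34.89 CPM (SD, n = 3) in Control WT, 130.5 ± 7.773 in AOM-DSS WT and 224.5 ± 21.14 in AOM-DSS Claudin-2TG. The transgenic libraries were thus 1.72-fold above the treated WT libraries (adjusted p = 0.0103, edgeR) and 0.978-fold of Control WT (adjusted p = 0.897).

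Each comparison was fitted with edgeR over all genes that passed a filter on low counts, and a gene is called where its p-value, adjusted over all these genes, was under 0.05. All 7 members passed the filter in all 3 comparisons. The labels do not name the mouse behind each library. The study describes the replicates as mice, and the difference in sex between R1 and the other controls means that not all Control WT libraries came from 1 mouse.

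The first comparison asks how carcinogen and colitis changed the genes in WT colon. In AOM-DSS WT, 4 of the 7 members rose against Control WT: *Ly6a*, *Clu*, *Anxa1* and *Msln*. None fell. Of the 15437 genes tested, 8.04% were called higher and 6.92% lower. *Clu* changed most, by 9.27-fold, followed by *Msln* at 5.51-fold, while *Anxa1* and *Ly6a* rose 2.14-fold and 2.11-fold. The groups did not overlap for 6 of the members, all higher in AOM-DSS WT, against 18.9% of all genes tested. The median log2 fold change of the members was 1.08, and that of all genes tested was 0.021.

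*Clu* (ENSMUSG00000022037, chr14:65968483-65981548, plus strand) was at 80.0, 38.7 and 23.04 CPM in the Control WT libraries R1, R2 and R3, and at 211.5, 476.3 and 616.4 CPM in the AOM-DSS WT libraries R4, R5 and R6. The lowest treated library was above the highest control, and R6 held 2.91 times as much as R4. The log2 fold change was 3.21 ± 0.58 (SE) with an adjusted p of 0.0196. Clusterin is an extracellular chaperone that is also made by cells other than crypt epithelium, and its RNA was counted here over the whole tissue.

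*Ly6a* (ENSMUSG00000075602, chr15:74994877-74998031, minus strand) was at 341.5, 280.6 and 433.0 CPM in R1 to R3 and at 464.7, 782.1 and 972.3 CPM in R4 to R6. The groups did not overlap, but R4 was close to the highest control, R3. The log2 fold change was 1.08 ± 0.28 (SE), adjusted p = 0.0422, which is near the threshold. Sca-1 is a GPI-anchored protein of the Ly6 family, used widely to mark blood stem cells and also found on endothelium and activated lymphocytes.

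*Anxa1* (ENSMUSG00000024659, chr19:20373428-20390944, minus strand) encodes annexin A1, a calcium-dependent phospholipid-binding protein known to promote wound closure and the resolution of inflammation. It was the most even of the called members: 222.3, 244.2 and 265.7 CPM in R1 to R3, and 447.6, 573.9 and 536.5 CPM in R4 to R6. The coefficient of variation was 8.89% in Control WT and 12.5% in AOM-DSS WT, against 62.3% and 47.3% for *Clu*. Its log2 fold change was 1.10 ± 0.14 (SE), with an adjusted p of 0.00763.

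*Msln* (ENSMUSG00000063011, chr17:25748614-25754327, minus strand) encodes mesothelin, a surface glycoprotein of mesothelium that several carcinomas also make. It was at 5.672, 2.603 and 2.493 CPM in R1 to R3 and at 11.43, 17.19 and 30.44 CPM in R4 to R6, without overlap. The log2 fold change was 2.46 ± 0.46 (SE), adjusted p = 0.0189. The summed level of 8 other markers of mesothelium was 9.028 to 13.57 CPM in Control WT and 2.65 to 10.65 CPM in AOM-DSS WT, and none of the 6 tested was called. Of these 6, *Muc16*, the mesothelin-binding mucin CA125, was the 1 with a positive log2 fold change (1.21, adjusted p = 0.177). It was at 0.4975 to 0.6449 CPM in Control WT, at 0.7272, 2.543 and 0.6795 CPM in R4 to R6, without overlap, and at 0.2071 to 0.6036 CPM in R7 to R9. The summed level of the 8 markers in R7 to R9 was 2.002, 11.22 and 7.17 CPM, lowest in R7 and highest in R8 as for *Msln*. Against AOM-DSS WT, 4 of the markers were tested in AOM-DSS Claudin-2TG and 0 called, 2 with a positive log2 fold change (*Upk3b* 0.86, *Upk1b* 0.95). The part of mesothelium in the level of *Msln* was not tested.

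*S100a6* (ENSMUSG00000001025, chr3:90612882-90624181, plus strand), which encodes the calcium-binding protein calcyclin, had the highest level of the members, also per kilobase. It was at 2443.5, 2364.9 and 2000.5 CPM in R1 to R3 and at 3840.5, 2772.0 and 3211.1 CPM in R4 to R6. The groups did not overlap, and the log2 fold change of 0.53 ± 0.16 (SE) did not pass the test (adjusted p = 0.0558). It was the only member for which R4 was the highest treated library.

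**Figure D1:**
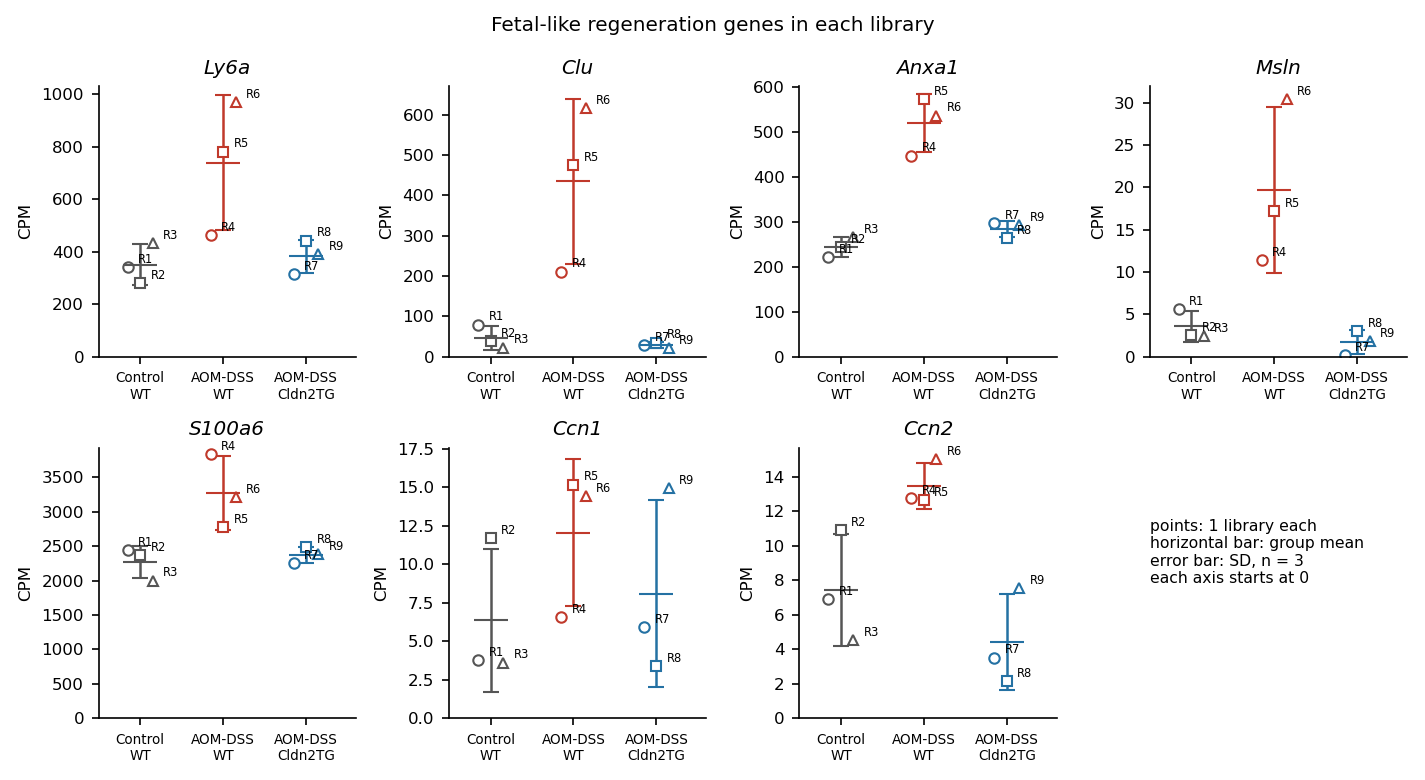
Level of each of the 7 genes (vertical axis, CPM, linear and starting at 0) in the 9 libraries, by group. Each point is 1 library with its number, the horizontal bar is the group mean and the error bar is the SD (n = 3). For *Clu*, the AOM-DSS WT libraries lie between 211.5 and 616.4 CPM and the other 6 at or below 80.0 CPM, whereas the groups overlap for *Ccn1*.

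The YAP target genes of the list did not pass the test in WT colon. *Ccn1* (ENSMUSG00000028195, chr3:145646976-145649981, minus strand) was at 3.781, 11.72 and 3.611 CPM in R1 to R3 and at 6.545, 15.17 and 14.41 CPM in R4 to R6. The control R2 lay above the treated R4, and the log2 fold change of 0.93 ± 0.53 (SE) had a 95% interval from -0.33 to 2.18 and an adjusted p of 0.272. *Ccn2* (ENSMUSG00000019997, chr10:24595442-24598683, plus strand) was at 6.916, 10.91 and 4.514 CPM in R1 to R3 and at 12.78, 12.63 and 15.02 CPM in R4 to R6. These groups did not overlap, and the log2 fold change was 0.86 ± 0.30 (SE) with an adjusted p of 0.0911. Of the exons of *Ccn2*, 665 bases (23.2%) are shared with *Gm15270* on the opposite strand. That antisense gene held 0 to 6 counts in each library. The strand setting of the counting is not given in the sources used here, so how reads in the shared bases were assigned is not known.

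The calls depended on single libraries although the direction did not. All 7 log2 fold changes stayed above 0 when each library was left out in turn. Without R2, no member was called: the adjusted p was 0.0507 for *Anxa1*, 0.0847 for *Clu*, 0.0844 for *Msln* and 0.145 for *Ly6a*, and 135 of all genes tested were called in place of 2310. Without R3, *Anxa1* alone was called (adjusted p = 0.0322). Without R6, *Anxa1* (0.0167) and *Msln* (0.0357) were called. Without R1, the library of the other sex, the *Ly6a* call was lost (0.121) and the others held. Without R5, *Ly6a* was lost (0.0956) and *S100a6* was called (0.0484). Over all genes, these fits called 404 without R3 (2.55%), 1062 without R6 (6.72%), 631 without R1 (3.96%) and 1245 without R5 (7.9%). Without R4, the same 4 members were called, with adjusted p-values between 0.000584 (*Anxa1*) and 0.0117 (*Clu*), in a fit that called 4080 of all genes (25.7%, against 2310 genes with all libraries). The fold of *Clu* ran from 7.29 without R3 to 14.1 without R1, and that of *Ccn1*, not called in any fit, from 1.55 without R3 to 3.25 without R2.

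**Figure D2:**
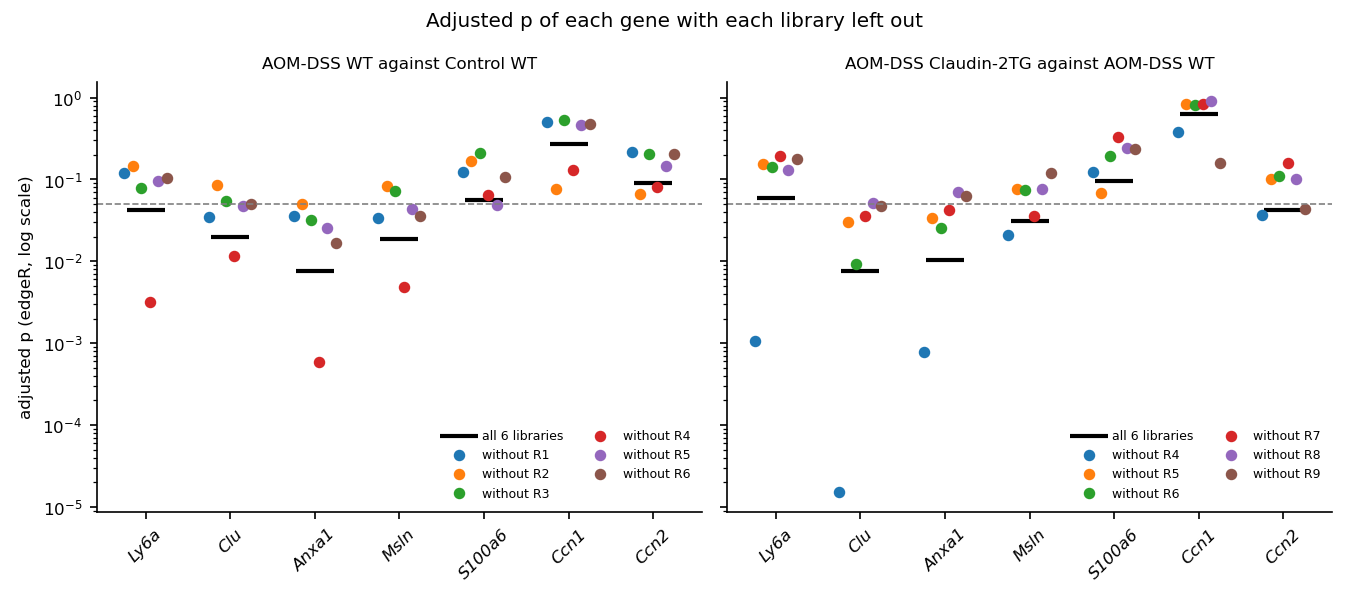
Adjusted p (vertical axis, log scale, edgeR) of each of the 7 genes in 2 comparisons. The black bar is the fit of all 6 libraries, each colored point leaves out 1 library, and the dashed line marks 0.05. *Anxa1* lies below the line in 5 of the 6 fits on the left and *Ly6a* in 1 of 6.

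The second comparison asks how the Claudin-2 transgene changed these genes under the same treatment. In AOM-DSS Claudin-2TG, 4 of the 7 members fell against AOM-DSS WT: *Clu*, *Msln*, *Ccn2* and *Anxa1*. None rose. Of the 14888 genes tested, 7.35% were called lower and 2.19% higher. *Clu* was 15.2-fold lower, *Msln* 11-fold, *Ccn2* 3.09-fold and *Anxa1* 1.83-fold. For 6 members the transgenic libraries lay below all treated WT libraries, against 15.2% of all genes tested. The median log2 fold change of the members was -0.95 and that of all genes was 0.008. The AOM-DSS WT libraries stand in both this comparison and the one before, so that the opposite directions are not independent of each other.

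*Clu* was at 29.33, 35.26 and 21.07 CPM in the transgenic libraries R7, R8 and R9, against 211.5 to 616.4 CPM in AOM-DSS WT. The log2 fold change was -3.93 ± 0.43 (SE), adjusted p = 0.00763. *Msln* was at 0.2071, 3.068 and 1.902 CPM in R7 to R9, where R7 held only 3 counts. Its log2 fold change was -3.46 ± 0.73 (SE), adjusted p = 0.0312.

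*Anxa1* was at 296.9, 264.4 and 292.4 CPM in R7 to R9, with a log2 fold change of -0.87 ± 0.14 (SE) and an adjusted p of 0.0103. *Ccn2* was at 3.52, 2.163 and 7.536 CPM, all below the lowest AOM-DSS WT library at 12.63 CPM. Its log2 fold change was -1.63 ± 0.41 (SE), adjusted p = 0.0422.

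*Ly6a* and *S100a6* lay lower in every transgenic library than in any treated WT library but did not pass the test. *Ly6a* was at 316.5, 443.1 and 390.2 CPM in R7 to R9, where R8 came close to the treated WT library R4. Its log2 fold change of -0.95 ± 0.26 (SE) had an adjusted p of 0.0598. *S100a6* was at 2253.1, 2487.2 and 2388.8 CPM, with a log2 fold change of -0.46 ± 0.15 (SE) and an adjusted p of 0.0958. When only library size was used for scaling, both were called, but the median log2 fold change of all genes was then -0.0923, against 0.0085. DESeq2 also called both, and called 2072 of all genes in place of 1421.

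*Ccn1* was the only member with overlapping groups here. It was at 5.936, 3.37 and 14.93 CPM in R7 to R9, so that R9 reached the level of the treated WT libraries R5 and R6. The log2 fold change was -0.59 ± 0.57 (SE), with a 95% interval from -1.92 to 0.74 and an adjusted p of 0.631. *Ccn2* was also highest in R9 among the transgenic libraries.

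Leaving out 1 library again moved the calls, with all 7 log2 fold changes below 0 throughout. Without R8, no member was called, with adjusted p-values of 0.0515 for *Clu*, 0.071 for *Anxa1*, 0.0774 for *Msln* and 0.101 for *Ccn2*, and the calls among all genes dropped from 1421 to 58. Without R9, *Clu* (0.0477) and *Ccn2* (0.0431) were called. Without R5, *Clu* (0.0305) and *Anxa1* (0.0341) were called, and without R6 the same pair (0.00928 and 0.0252). Without R7, the *Ccn2* call was lost (0.158). Over all genes, 108 were called without R9 (0.685%), 555 without R5 (3.7%), 805 without R6 (5.19%) and 460 without R7 (2.92%). Without R4, *Ly6a* was called as well (0.00107), and the adjusted p of *Clu* was 1.5e-05, while 2895 of all genes were called (19.2% against 9.54% with all libraries). *Msln* was 18.6-fold lower without R8 and 7.73-fold without R7, and *Ccn2* was 4.75-fold lower without R9 and 2.42-fold without R8. *Ccn1*, not called in any fit, was 2.6-fold lower without R9 and 1.15-fold without R8.

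The third comparison sets the treated transgenic colon against untreated WT colon. None of the 7 members was called by edgeR, and 1 (*Anxa1*) had an unadjusted p under 0.05. DESeq2 also called 0. Among the 15013 genes tested, 3.92% were called higher and 6.07% lower. All 7 members overlapped between the groups, and 16.4% of all genes lay lower without overlap. The log2 fold change was 0.13 for *Ly6a* (95% interval -0.26 to 0.52), 0.23 for *Anxa1* (0.01 to 0.45) and 0.07 for *S100a6* (-0.15 to 0.30). The intervals were wide for the other members: -0.71 for *Clu* (-2.07 to 0.64), -1.0 for *Msln* (-2.74 to 0.73), 0.34 for *Ccn1* (-1.55 to 2.23) and -0.77 for *Ccn2* (-1.93 to 0.40). Single libraries moved these values: *Clu* went to -0.094 without R1 and to -1.047 without R3, *Msln* to -0.506 without R7 (-0.508 without R1) and to -1.773 without R8, and *Ccn2* to -0.387 without R2 and to -1.4 without R9. *Ccn1* turned direction, to -0.46 without R9, and reached 1.118 without R2. The genotype and the treatment both differ between these groups, and their parts cannot be told apart.

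**Figure D3:**
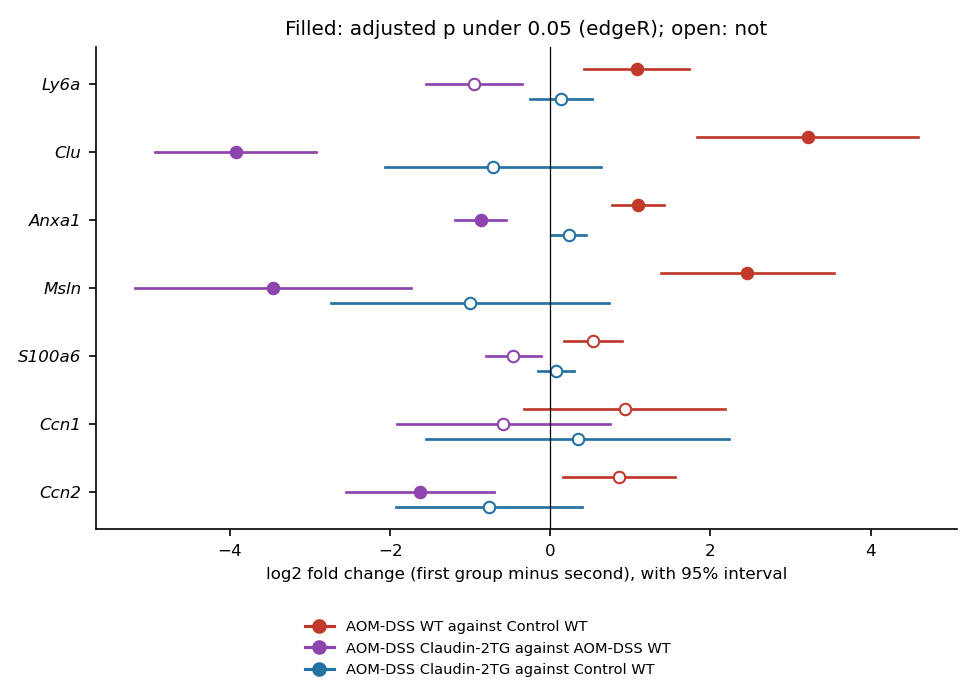
Log2 fold change (horizontal axis, first group minus second) of the 7 genes in the 3 comparisons, with the 95% interval of the edgeR fit (n = 3 libraries per group). Filled points passed an adjusted p of 0.05. The values run from 0.53 to 3.21 for AOM-DSS WT against Control WT and from -3.93 to -0.46 for AOM-DSS Claudin-2TG against AOM-DSS WT.

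The members differed widely in level. On the scale of CPM per kilobase of gene model, the mean levels in Control WT were 1660.3 for *S100a6*, 291.9 for *Ly6a*, 93.58 for *Anxa1* and 13.74 for *Clu*, none of which overlapped the next over the 3 libraries. *Ccn1* (3.155), *Ccn2* (2.603) and *Msln* (1.698) followed, and neighbors in this order overlapped. In AOM-DSS WT the order of the first 4 stayed, but *Clu* (126.4) now overlapped *Anxa1* (199.1), and *Msln* (9.312) now stood above *Ccn1* (5.963), whose range it overlapped, and above *Ccn2* (4.71), whose range it did not overlap. In AOM-DSS Claudin-2TG the order was that of Control WT, with *Clu* at 8.306 and *Msln* at 0.8164 CPM per kilobase, but *Clu* overlapped *Ccn1* (4.001).

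Within AOM-DSS WT the libraries were not alike. R4 was the lowest of the 3 for 5 of the 7 members, *Ly6a*, *Clu*, *Anxa1*, *Msln* and *Ccn1*, and R6 was the highest for 4. R5 was the lowest for *S100a6* and *Ccn2*. The ratio of the highest to the lowest treated WT library ran from 1.19 for *Ccn2* to 2.91 for *Clu*.

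Other genes known from fetal gut epithelium or regenerating crypts were read from a list of 20. In AOM-DSS WT, 10 of them rose and 0 fell against Control WT, with a median log2 fold change of 0.995. *Spp1*, which encodes osteopontin, was at or below 0.3483 CPM in Control WT and at 0.5714, 10.61 and 17.33 CPM in R4 to R6, so R4 was close to the controls. *Anxa2*, with the highest mean CPM of the list, rose 1.93-fold (adjusted p = 0.00834). Among the others that rose were *Plaur*, *S100a11*, *Krt7*, *Ereg*, *Ptgs2* and *Il1rn*. *Cldn4*, *Areg*, *Hbegf* and *Emp1*, among others, did not pass the test.

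In AOM-DSS Claudin-2TG, 4 of the 19 tested fetal-like genes of this list fell against AOM-DSS WT and 0 rose, with a median of -1.15. *S100a11* was 2.43-fold lower (adjusted p = 0.0145). *Anxa2* and *Gja1*, which encodes connexin 43, also fell. Against Control WT, 2 of 18 fell, *Anxa5* and *Gja1*, and the median was 0.011.

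The AP-1 motif TGANTCA was present in 8 of the 14 genes of this list that had a promoter (57.1%), against 7.82% of all genes, a description of a list of named genes with no test. The motif also occurred in *Cldn4*, *Emp1*, *Gja1* and *Sprr1a*, whose groups overlapped between AOM-DSS WT and Control WT. The windows below, 30 bases each, are only those of genes that rose in AOM-DSS WT, with the motif in capitals. This choice does not tie the motif to the rise. They come from GRCm38.p6: *Anxa2* at chr9:69453577-69453606 (plus strand), *S100a11* at chr3:93520447-93520476 (plus), *Il1rn* at chr2:24336708-24336737 (plus) and *Plaur* at chr7:24462403-24462432 (plus).
Anxa2: tccaagttggaTGAGTCAcccagcagggtg
S100a11: cgggcacagccTGAGTCAggctgaggggcg
Il1rn: ttctgctagacTGAGTCAcgcctctggaag
Plaur: acccctggagcTGACTCActctttagcaaa

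Other target genes of YAP and TAZ were read from a list of 20. Of these 20 genes, 19 were tested and 3 rose in AOM-DSS WT, with a median log2 fold change of 0.25. They were *Nt5e*, the ectonucleotidase CD73 (1.84-fold, adjusted p = 0.0316), *F3*, tissue factor (2.82-fold, adjusted p = 0.0102), and *Myof*. In AOM-DSS Claudin-2TG, 6 fell against AOM-DSS WT and 0 rose, with a median of -0.78. *Rbms3* was 6.71-fold lower (adjusted p = 0.0151), from 4.21-fold without R6 to 8.5-fold without R4 and called in 3 of the 6 fits that leave out 1 library, and *Foxf2*, a transcription factor of gut mesenchyme, 3.74-fold lower (adjusted p = 0.0147). The TEAD motif was in 5 of 14 promoters of these target genes (35.7%), in 7 of 17 of the Hippo pathway components (41.2%), in 2 of 14 of the other fetal-like genes (14.3%) and in 14.4% of all genes.

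Of 20 Hippo pathway components, 1 rose and 1 fell in AOM-DSS WT. *Tead2*, a TEAD factor, was at 2.904 to 3.731 CPM in Control WT, at 5.714, 8.856 and 23.85 CPM in R4 to R6 and at 2.002 to 3.146 CPM in the transgenic libraries. It was called in both comparisons (adjusted p = 0.0459 and 0.039). *Wwc2*, a scaffold that activates the LATS kinases, fell (adjusted p = 0.0185). *Wwtr1*, which encodes TAZ, was 3.11-fold lower in AOM-DSS Claudin-2TG than in AOM-DSS WT (adjusted p = 0.00778). *Yap1* itself had a log2 fold change of 0.09 and -0.23 in the 2 comparisons and was not called. The component with the highest mean CPM, *Mob1a*, was not called either.

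**Figure D4:**
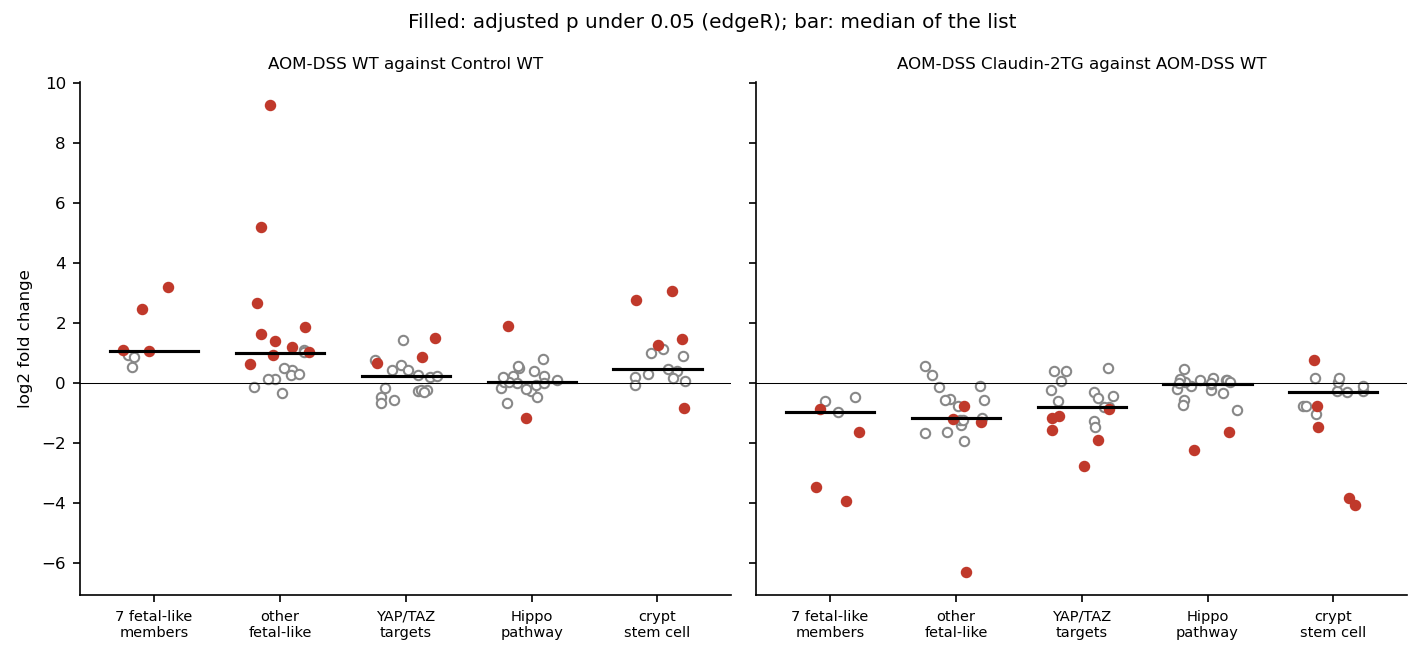
Log2 fold change (vertical axis) of every tested gene of 5 lists in AOM-DSS WT against Control WT (left) and AOM-DSS Claudin-2TG against AOM-DSS WT (right). Filled points passed an adjusted p of 0.05 and the bar is the median of the list. The medians of the members are 1.08 and -0.95, and those of the Hippo components are 0.044 and -0.015.

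Homeostatic crypt stem cell genes are the counterpart of the fetal-like state. Of 15 tested, 4 rose and 1 fell in AOM-DSS WT. *Lgr5*, the best known of them, had a log2 fold change of 0.48 ± 0.48 (SE) and was not called (adjusted p = 0.533). *Msi1* and *Tnfrsf19* showed the largest rise (adjusted p = 0.0232 and 0.0487) and also the largest fall in AOM-DSS Claudin-2TG against AOM-DSS WT (0.0112 and 0.0322), while *Rgmb* fell and rose in turn (0.0167 and 0.0182).

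The families of the members moved unevenly. In the Ly6 family, 3 of 7 tested genes rose in AOM-DSS WT, *Ly6d*, *Ly6c1* and *Ly6g*. *Ly6d* was at 0.4299 to 3.682 CPM in Control WT, at 12.52, 39.2 and 104.7 CPM in R4 to R6 and at 0.439 to 2.113 CPM in R7 to R9. *Ly6g* was at 302.5 to 347.6 CPM in the transgenic libraries, 1.82-fold above Control WT (adjusted p = 0.00881). *Ly6e* had the highest mean CPM of the family without *Ly6a* and was not called. Ly6 genes are paralogs, and how the counting treated reads that match several of them is not given in the sources used here.

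Among the annexins, 3 of 10 tested rose in AOM-DSS WT, *Anxa8*, *Anxa2* and *Anxa7*, and 2 fell, *Anxa13* and *Anxa11*. *Anxa8* rose 4.5-fold (adjusted p = 0.00494). *Anxa13*, an annexin of differentiated gut epithelium, was 2.13-fold lower in AOM-DSS WT than in Control WT and 1.89-fold higher in AOM-DSS Claudin-2TG than in AOM-DSS WT (adjusted p = 0.0131 and 0.027). *Anxa6* was 2.63-fold lower in the transgenic libraries than in AOM-DSS WT (adjusted p = 0.0068).

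In the S100A family, 6 of 9 tested rose in AOM-DSS WT and 0 fell. *S100a8* and *S100a9*, which encode the calprotectin subunits of neutrophils, were at or below 0.3009 CPM in Control WT. *S100a9* was at 0.7792, 21.92 and 12.09 CPM in R4 to R6 and at or below 0.1509 CPM in R7 to R9. *S100a16*, which had the highest mean CPM over all 9 libraries of the family without *S100a6*, rose 1.69-fold (adjusted p = 0.0178). Of the CCN family, *Ccn3* had the highest mean CPM (82.36 to 203.8 CPM in Control WT) and was not called. It lay below all Control WT libraries in AOM-DSS WT (20.34 to 70.8 CPM) and in AOM-DSS Claudin-2TG (19.16 to 61.68 CPM). *Ccn4*, a Wnt-induced member, was lower in the transgenic libraries than in AOM-DSS WT (log2 fold change -2.70, adjusted p = 0.0165), with -3.515 without R8 and a call in 2 of the 6 fits that leave out 1 library.

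The calls of these lists moved with single libraries too, as did those of all genes. Over the genes of the pathway and family lists together, 32 were called in AOM-DSS WT against Control WT, and from 2 without R2 to 51 without R4 when 1 library was left out. Against AOM-DSS WT, 25 list genes were called in AOM-DSS Claudin-2TG, and from 0 without R8 to 47 without R4. Over all genes, 1421 were called there (9.54%), 58 without R8 (0.382%) and 2895 without R4 (19.2%). With 1 library left out, *Tead2*, *Tnfrsf19*, *Ly6d*, *Msi1*, *Nt5e*, *S100a8*, *S100a9* and *Spp1* were each called in 1 of 6 fits in the first comparison. In the second, *S100a9* and *Anxa13* were called in 1 of 6 and *Tead2*, *Tnfrsf19*, *Ly6d*, *Rgmb*, *Foxf2* and *Ccn4* in 2 of 6.

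Markers of other cells also differed between the groups, not all in the way of the members. Of 10 leukocyte markers, 7 rose in AOM-DSS WT and 8 fell in AOM-DSS Claudin-2TG against it. Their summed level was 58.43 to 134.8 CPM in Control WT, 217.7 to 335.2 CPM in AOM-DSS WT and 40.39 to 79.79 CPM in AOM-DSS Claudin-2TG. Summed fibroblast markers were 393.4 to 563.6, 632.0 to 1355.3 and 252.9 to 323.2 CPM in the same order, with 1 of 10 called higher and then 4 of 10 lower. Summed endothelial markers were 49.75 to 63.54, 56.72 to 77.56 and 28.57 to 33.44 CPM, with 1 of 10 called higher in AOM-DSS WT. In the transgenic libraries, 6 of 10 fell against AOM-DSS WT. Against Control WT, 7 of 10 endothelial, 3 of 10 fibroblast and 0 of 10 leukocyte markers were called lower in AOM-DSS Claudin-2TG, where no member was called. The part of these cells in the member genes was not tested, and in whole colon fewer cells of a type and less RNA per cell cannot be told apart.

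The 10 epithelial markers were not called in either of the first 2 comparisons, and 2 of 10 were called higher in AOM-DSS Claudin-2TG than in Control WT. Their sum was 17039.5 to 18665.7 CPM in Control WT, 17845.4 to 21496.5 CPM in AOM-DSS WT and 19244.7 to 22909.7 CPM in AOM-DSS Claudin-2TG. Of 8 squamous markers, 4 were tested. The keratins *Krt14* and *Krt13* rose in AOM-DSS WT (adjusted p = 0.00492 and 0.00541) and fell in AOM-DSS Claudin-2TG against it (0.00625 and 0.00777). *Krt10* was not called and lay higher in the transgenic libraries (5.108 to 6.589 CPM) than in AOM-DSS WT (4.213 to 4.935 CPM). *Krt5* and *Krt1* were at or below 0.1558 CPM in every library. *Krt6a*, too low to be tested, was at 0 in Control WT, at 0.2597, 0.6576 and 2.378 CPM in R4 to R6 and at 1 count in all in the transgenic libraries. *Trp63*, the defining factor of squamous epithelium, was at 0 in all Control WT and transgenic libraries and at or below 0.1315 CPM in AOM-DSS WT. The summed level of the 8 squamous markers was 123.3 to 144.5 CPM in Control WT, 163.1 to 231.4 CPM in AOM-DSS WT and 137.6 to 182.9 CPM in AOM-DSS Claudin-2TG. Most of this sum was *Sfn*, with means of 130.2, 164.6 and 147.8 CPM in the same order, which was not called. Smooth muscle markers fell to 998.8 to 1539.6 CPM in the transgenic libraries from 2073.2 to 4161.2 CPM in Control WT, 3 of 8 called. Markers of enteric glia and neurons were lower than Control WT in AOM-DSS WT (3 of 8 called) and in AOM-DSS Claudin-2TG (8 of 8). Of the interferon response genes, 3 of 10 rose in AOM-DSS WT and 1 of 10 fell in AOM-DSS Claudin-2TG against AOM-DSS WT.

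**Figure D5:**
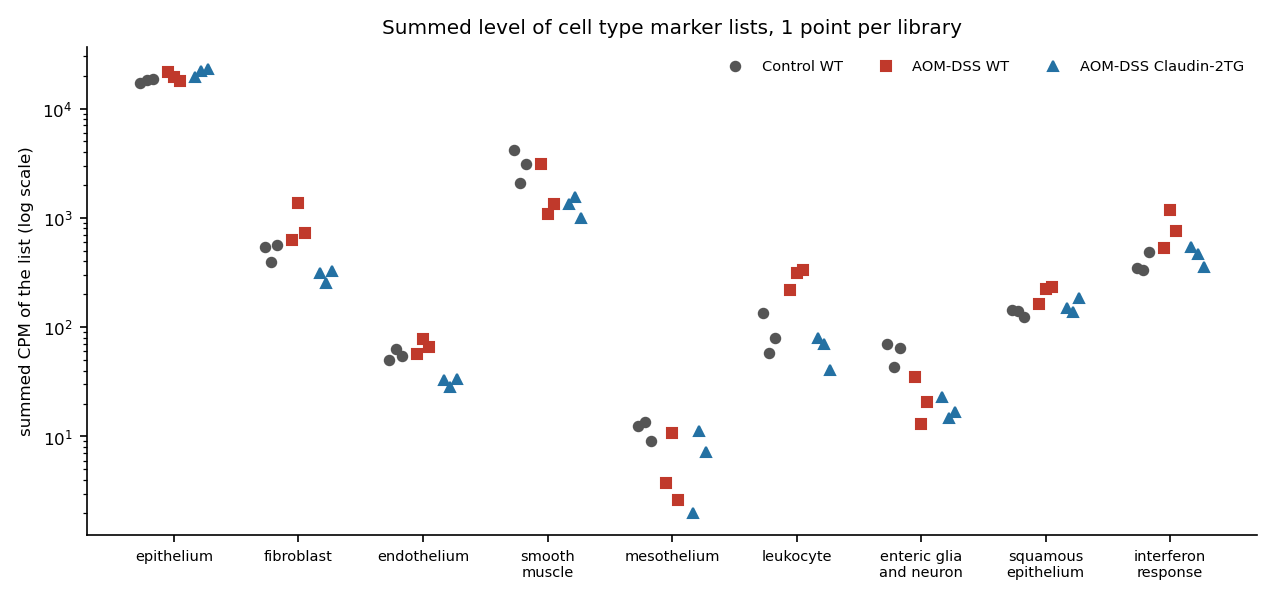
Summed level of 9 marker lists (vertical axis, CPM, log scale), 1 point per library, with groups by color and shape. Leukocyte markers lie at 217.7 to 335.2 CPM in AOM-DSS WT and at or below 134.8 CPM in the other 6 libraries, while epithelial markers lie between 17039.5 and 22909.7 CPM in all 9.

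The genes whose log2 CPM followed each member most closely over the 9 libraries were picked by Pearson's r among 13891 genes with a symbol and a mean of at least 1 CPM. The libraries are 3 groups of 3, so r reflects shared differences between groups as well as differences between libraries within a group. *Clu* was followed by *Cfp* (r = 0.992), which encodes the complement factor properdin, *Pld4* (0.980) and *Cd244a* (0.979), all genes known from leukocytes. *Ly6a* was followed by *Ncmap* (0.988) and the MHC class I genes *H2-Q7* (0.987) and *H2-Q6* (0.986), near-identical copies that may share reads. *Anxa1* was followed by *Slc9a4* (0.984), *Fer1l4* (0.984) and *Itgae* (0.983), the integrin of intraepithelial lymphocytes, and *Msln* by *Gem* (0.974), *Ptprz1* (0.961) and *Tmem45a* (0.961).

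For the remaining members r was lower. *S100a6* was followed by *Nudt17* (0.945), *Bnip2* (0.942) and *Arrdc1* (0.940). *Ccn1* was followed by *Gm37486* (0.943), *Ppp1r9b* (0.937) and *C9orf72* (0.907). Like *Ccn1*, these genes overlapped between the groups and were not called in any of the comparisons. *Ccn2* was followed by *Pigm* (0.942), *S1pr2* (0.914) and *Fosl1* (0.910), which encodes the AP-1 factor Fra-1.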

How the data were processed

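RNA of mouse colon, 9 libraries each sequenced over 2 lanes, was mapped and counted by the authors, who deposited whole-number read counts per gene. Their methods name TopHat2, featureCounts and DESeq2, while the submitters' processing notes name HISAT2, featureCounts and Subread with build GRCm38, so the aligner is uncertain. Settings for strand and for reads with several matches are not given in the sources used here. The treatment text under the control samples also names AOM and DSS, and groups follow the genotype and treatment labels.

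Lanes differed by sampling noise only (chi-square per degree of freedom 0.995 to 1.06, against 16.8 to 66.3 between libraries of a group) and were summed. Symbols came from GENCODE M21 for 47224 of 47729 genes. The members and lists were chosen with earlier results of these data known. Each comparison was fitted on its 6 libraries with edgeR 4.0.16 in R 4.3.3 (TMM, filterByExpr with a minimum count of 10 and a total of 15, robust quasi-likelihood test, two-sided, Benjamini-Hochberg adjustment over all genes tested, 0.05). The smallest exact permutation p for 3 against 3 libraries is 0.1, so no such test could pass. Fold changes are linear values of the fitted log2 fold change, and standard errors were derived from the test statistic.

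Genes named are the members, *Cldn2*, of each fixed list the 2 called genes with the largest rise and fall in the first 2 comparisons at a mean of at least 1 CPM, of each list the gene with the highest mean, and the 3 genes most alike to each member. *Gm15270*, *Xist*, *Lgr5*, *Yap1*, *Trp63*, *Krt6a*, *Muc16*, *Upk1b* and the further list genes that complete a count or give an example were named after their values were seen. On simulated counts for AOM-DSS WT against Control WT, 193 of 200 changed genes (log2 fold change 2) and 15 unchanged genes of 15232 were called. The changed genes were drawn from the better expressed ones, and each gene had the same spread in both groups. The rate therefore does not carry over to smaller changes or to groups of uneven spread. Alternatives were DESeq2 1.42.0, upper-quartile scaling, library size alone, no filter, at least 10 counts in every library, all 9 libraries in 1 fit, each lane alone and each library left out. Some genes that this rule names are not reported here.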

Additional observations from a re-analysis of the deposited data

How the results depend on the processing

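No paired analysis was possible because the libraries carry 9 different numbers. In AOM-DSS WT against Control WT, the number of members called was 4, between 0 and 4 with 1 library left out, and 2 (*Anxa1* and *Msln*) without a filter on low counts. In AOM-DSS Claudin-2TG against AOM-DSS WT it was 4, and between 0 and 5 with 1 library left out. Other settings gave 4 to 6 and 3 to 6. DESeq2 called 6 in each, adding *S100a6* and *Ccn2* to the first and *Ly6a* and *S100a6* to the second, while it also called more of all genes (3220 against 2310 and 2072 against 1421). No setting called a member in AOM-DSS Claudin-2TG against Control WT. Over the pathway and family lists, the counts called were 32, 25 and 18 in the 3 comparisons and ran from 2 to 51, 0 to 47 and 9 to 19 with 1 library left out. The last 2 became 16 with at least 10 counts in every library, and 32 without a filter and 7 with all 9 libraries in the fit. Over all genes, 2310, 1421 and 1501 were called, and from 135 to 4080, 58 to 2895 and 525 to 1383 with 1 library left out. The cause of these shifts was not tested.

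Among the log2 fold changes, the direction turned only in AOM-DSS Claudin-2TG against Control WT, where none of these genes was called. *S100a6* went to -0.039 with library size alone. With 1 library left out, *S100a6* ran from -0.01 to 0.134, *Ly6a* from -0.008 to 0.307, *Ccn1* from -0.46 to 1.118 and *Cldn2* from -0.146 to 0.055. Levels per kilobase moved by less than 1 SD with either other scaling in all 42 values. With Spearman's rho, fewer than 2 of the 3 most alike genes stayed the same for 6 of the 7 members. Depth limits *Msln*, *Ccn1* and *Ccn2* most, with 3 to 448 counts per library.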
